A study of Rattus norvegicus with 6 samples.

Results

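A set of 10 genes of lysosomal protein breakdown was followed in grafted rat corneas: the cathepsins Ctsb, Ctsc, Ctsd, Ctsh, Ctsk, Ctsl, Ctss and Ctsz, the legumain gene Lgmn, and Cst3, which encodes the inhibitor cystatin C. They were taken by gene symbol from the count table, where 10 of 10 were found among 17771 listed genes. The corneas came from Wistar recipients of an allograft from SD donors, and every group carried such a graft. After surgery the rats received daily intraperitoneal saline (control, 3 libraries) or resveratrol, a plant polyphenol (3 libraries), and the libraries represent day 7. The labels give no age, sex or dose, no ungrafted cornea enters the comparison, and host and donor RNA are not separated in it. Whether the 3 libraries of a group came from separate animals is not stated in the labels, so each p-value reflects just the spread among these libraries, and that spread may be technical.

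Cathepsins are proteases made as inactive precursors and activated in the acidic endosome and lysosome. Most belong to the papain family of cysteine proteases (Ctsb, Ctsc, Ctsh, Ctsk, Ctsl, Ctss and Ctsz), whereas Ctsd is an aspartic protease and legumain a separate cysteine protease that cuts after asparagine and helps to process other cathepsins. Cystatin C is a secreted protein that binds and blocks papain-family enzymes outside the cell. In antigen-presenting cells cathepsin S trims the invariant chain, the product of Cd74, before peptides can be loaded on MHC class II. Cathepsin K degrades collagen, and cathepsin C activates the serine proteases of leukocyte granules.

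Total gene counts were 35068936 to 37460756 per library, and the 10 genes together took 0.633% to 0.706% of the counts in control and 0.563% to 0.627% in resveratrol. The corneal epithelial markers Krt12 and Krt5 were abundant in every library, and the 9 epithelial markers summed to 72867 to 81995 CPM (counts scaled to library size, with TMM factors) in control and 72266 to 81808 CPM in resveratrol. Of the 14213 genes tested with edgeR's quasi-likelihood test, 0 (0% of genes tested) passed a Benjamini-Hochberg adjusted p of 0.05; 2782 had an unadjusted p under 0.05, and DESeq2, run as an alternative, called 1007. Control 3 was the control library nearest to resveratrol, by the median of the list, for macrophage, dendritic cell, T cell and class II genes, and without it edgeR called 21 genes, none of them among the 10. Its likeness to resveratrol was not limited to these lists. Between whole libraries, chi-square over its degrees of freedom was 39.4 and 43.0 for control 3 with resveratrol 2 and 3, and 82.7 with resveratrol 1. It was 54.6 for control 3 with control 1 and 37.3 with control 2.

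Upstream sequences of the genes are shown because they differ in the letters that myeloid, interferon and lysosomal regulators are known to bind. RefSeq (build GRCr8, which is not the build mRatBN7.2 named in the submitters' processing notes) held a stretch of 250 bases before to 50 bases after the start for 9 of the 10 genes by symbol. Ctss and Ctsc are printed as the genes with the largest differences between the groups, and Ctsd as one with a small difference. Capitals mark matches, on either strand, to GAAA followed by any 2 bases and GAAA (the interferon response element), GAGGAAGT (a purine box of the kind bound by the myeloid factor PU.1) and CACGTG (the core of the E-box bound by the lysosomal regulator TFEB).
Ctss, chr2:185775146-185775445, plus strand: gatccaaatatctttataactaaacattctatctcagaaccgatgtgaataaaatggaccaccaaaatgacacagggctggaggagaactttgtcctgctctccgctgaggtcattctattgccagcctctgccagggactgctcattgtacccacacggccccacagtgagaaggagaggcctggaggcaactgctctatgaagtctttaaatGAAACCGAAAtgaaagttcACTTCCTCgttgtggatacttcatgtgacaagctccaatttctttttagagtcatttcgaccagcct
Ctsc, chr1:151440799-151441098, plus strand: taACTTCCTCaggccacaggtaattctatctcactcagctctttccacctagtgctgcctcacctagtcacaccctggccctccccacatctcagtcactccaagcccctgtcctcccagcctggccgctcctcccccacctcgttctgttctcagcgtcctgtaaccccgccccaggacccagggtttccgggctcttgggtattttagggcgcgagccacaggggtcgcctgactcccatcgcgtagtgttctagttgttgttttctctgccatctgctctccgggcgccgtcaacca
Ctsd, chr1:206968772-206969071, minus strand: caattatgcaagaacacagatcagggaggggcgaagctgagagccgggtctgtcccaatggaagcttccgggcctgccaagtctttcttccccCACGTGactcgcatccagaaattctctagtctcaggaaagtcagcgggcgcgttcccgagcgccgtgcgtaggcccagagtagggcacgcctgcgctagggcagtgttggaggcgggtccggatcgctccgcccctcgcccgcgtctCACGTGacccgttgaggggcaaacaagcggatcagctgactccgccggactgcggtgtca
The interferon element was found in 1 of the 9 sequences, that of Ctss, at bases -36 to -27 from the start, and in 3.92% of 33469 rat promoters of the same length. The purine box was found in 2 of the 9, Ctss (-17 to -10) and Ctsc (-248 to -241), against 2.42% of all promoters. The core E-box was found in 1 of the 9, Ctsd, which held it at -157 to -152 and at -10 to -5, against 6.42% of all promoters; the second lies within the longer TCACGTGA, present in 0.777% of all. The marked motifs do not overlap in these 3 sequences. A GC box (GGGCGG), searched as well but not marked, was found in 7 of the 9, Ctsc and Ctsd among them, against 33.1% of all promoters. Ctsl, with the smallest difference of the 10, held none of the marked motifs, and neither did Ctsh, Ctsk, Ctsz, Lgmn and Cst3. The motifs were chosen with the sequences in view, and a match describes the letters only, not binding.

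The 10 genes spanned a wide range of levels per gene length, given in the authors' FPKM (fragments per kilobase, scaled to library size), and their order was nearly the same in every library. Ctsl, an endopeptidase of nearly all cells, was highest at 1749 FPKM ± 107 over the 6 libraries (SD, n = 6), the 21st gene by mean FPKM in the table. Ctsb, also broadly expressed, followed at 1037 ± 194 FPKM and rank 37. Ctsl and Ctsb held rank 1 and 2 of the 10 in 6 of 6 libraries and made up 72.0% to 78.6% of the summed FPKM of the 9 proteases. Cst3 (383 ± 63.4 FPKM) and Ctsd (342 ± 29.3 FPKM) came next; they did not differ beyond their spread, and in resveratrol 3 their order was turned. Ctsh, an aminopeptidase, lay at 239 ± 23.4 FPKM and Ctsk at 106 ± 28.8 FPKM, each at the same rank in every library. Lgmn (61.4 ± 14.0 FPKM) and Ctsz, a carboxypeptidase (61.0 ± 10.6 FPKM), could not be ordered, and changed places in control 1 and resveratrol 1. Ctsc (41.0 ± 11.3 FPKM) and Ctss (23.8 ± 12.7 FPKM, rank 2770 of 17771 genes) were the lowest of the 10 in every library.

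**Figure D1:**
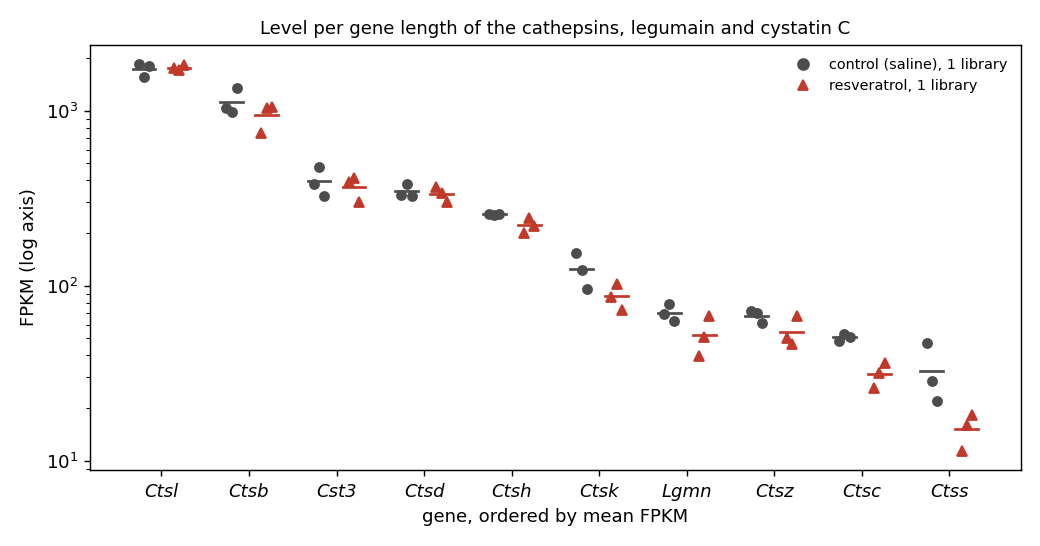
FPKM on a log axis for the 10 genes, ordered by mean FPKM; each point is 1 library, dots are control and triangles resveratrol (3 libraries each), and short lines are group means. Ctsl is at 1556 to 1852 FPKM and Ctss at 11.4 to 46.8 FPKM, and the points of the groups do not overlap for Ctsc, Ctsh and Ctss.

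In resveratrol corneas 9 of the 10 genes had a lower mean than in control, beside 51.2% of all genes tested. In edgeR this count was 7 without resveratrol 3, 8 without control 2 and 10 with upper-quartile factors. The median log2 fold change (resveratrol minus control) of the 10 was -0.30, beside -0.0080 over all genes tested. None passed edgeR's adjusted p of 0.05. At an unadjusted p under 0.05 edgeR gave 6 of the 10 (Ctsc, Ctss, Ctsk, Ctsh, Lgmn and Ctsz), all lower, where 11.7% of all genes tested were lower and 7.84% higher at that p (19.6% in all). Without control 1, control 2 or resveratrol 1 in turn, 2 of the 10 (Ctsc and Ctss) were left at that p. DESeq2 called 2 of the 10, Ctsc and Ctss, both lower, against 6.87% of genes with a DESeq2 adjusted p, 4.64% lower and 2.23% higher. The CPM of the groups did not overlap for 3 of the 10, Ctsc, Ctsh and Ctss, all lower, against 26.5% of genes tested, 14.4% lower and 12.2% higher. In bulk tissue, fewer cells of a type and less RNA per cell cannot be told apart.

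**Figure D2:**
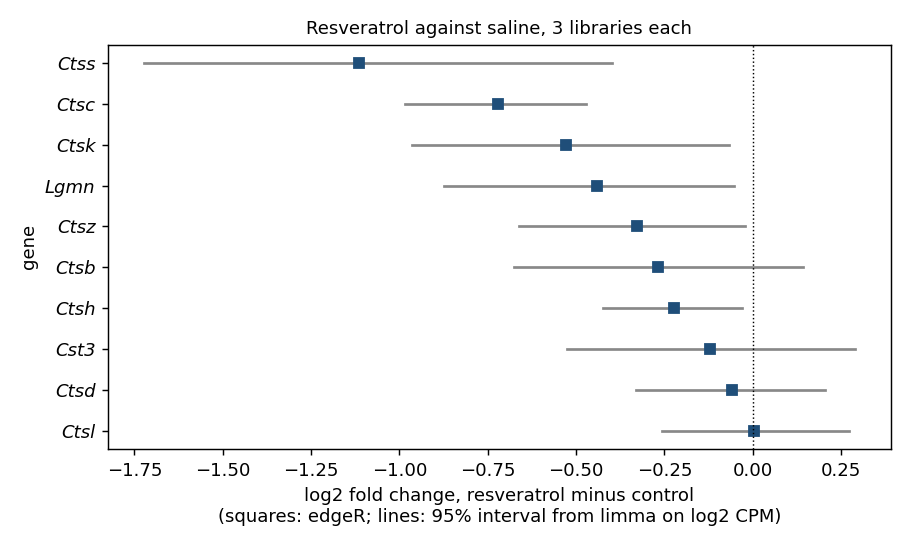
Log2 fold change of each gene, resveratrol minus control, as fitted by edgeR (squares) with the 95% interval from limma on log2 CPM (lines), 3 libraries per group. Ctss at -1.11 and Ctsc at -0.72 lie farthest from 0, and the intervals of Ctsb, Cst3, Ctsd and Ctsl include 0.

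Ctss, the cathepsin of antigen-presenting cells, showed the largest difference of the 10. It was at 61.7, 37.3 and 28.7 CPM in controls 1, 2 and 3, against 15.1, 20.6 and 23.2 CPM under resveratrol. All 3 control libraries were above all 3 resveratrol libraries, and control 1 stood far above the other two, so that the control mean (42.5 ± 17.1 CPM, SD, n = 3) was 2.17 times the resveratrol mean (19.6 ± 4.11 CPM). The log2 fold change was -1.11 ± 0.28 (moderated SE), lower than that of all but 3.07% of genes tested, with an edgeR adjusted p of 0.132 and a DESeq2 adjusted p of 0.00546. Without control 1 the log2 fold change was -0.74 and the DESeq2 adjusted p 0.0393. Without resveratrol 1 DESeq2 did not call Ctss (log2 fold change -0.93, adjusted p = 0.0540).

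Ctsc, the activator of granule serine proteases, had the smallest p-value of the 10. Its CPM was 296, 326 and 311 in control corneas against 162, 190.5 and 214 under resveratrol. The control libraries lay close together, and the lowest of them was well above the highest resveratrol library. The means were 311 ± 15.0 and 189 ± 26.0 CPM, a log2 fold change of -0.72 ± 0.11 with an edgeR adjusted p of 0.1002, a value it shared with other genes and below which no gene tested fell, and a DESeq2 adjusted p of 3.32e-05. DESeq2 called Ctsc in each of the 6 fits that left out 1 library, with log2 fold changes of -0.81 to -0.60.

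RNA of the granule proteases that Ctsc is known to activate, and of the other granule proteins listed with them except Srgn, was barely counted in these corneas. Protein held in granules was not measured, so these counts do not tell how much of it was present. Of 16 genes on that list 13 were in the table, and 11 of these, among them the proteases Gzma, Gzmb, Elane and Prtn3 and the pore-forming Prf1, had 0 counts in at least 1 library. Gzmb was at 0.805, 0.0544 and 0.0536 CPM in control corneas against 0, 0.0268 and 0.132 CPM under resveratrol. Only Srgn, the proteoglycan that packs granules and itself no protease, was high enough to be tested; it overlapped between the groups (log2 fold change -0.50 ± 0.36). Ctsg, a further serine protease matured by Ctsc, was not analysed here.

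Ctsk, the collagen-degrading cathepsin, was at 219, 175 and 137 CPM in control corneas against 124, 144 and 100.3 CPM under resveratrol. Control 3 lay below resveratrol 2, so the groups overlapped, and 8 of the 9 pairs of a control with a resveratrol library had the control higher. The log2 fold change was -0.53 ± 0.19 (edgeR adjusted p = 0.208, DESeq2 adjusted p = 0.105). DESeq2 called it without control 3 (log2 fold change -0.66, adjusted p = 0.0156), while without control 1 its DESeq2 log2 fold change was -0.33 (adjusted p = 0.353). Ctsk and Ctss are near neighbours on chromosome 2 in RefSeq, with a single annotated protein-coding locus between them. Their CPM ratio was not constant, at 0.210 to 0.282 Ctss per Ctsk in control and 0.122 to 0.231 in resveratrol.

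Lgmn, the asparaginyl endopeptidase, was at 137, 156 and 125 CPM in control corneas against 79.5, 99.0 and 129.9 CPM under resveratrol. Ctsz was at 98.0, 94.6 and 83.6 CPM in control corneas against 69.2, 62.2 and 88.6 CPM under resveratrol. For both genes resveratrol 3 lay within or next to the control libraries, above control 3, while resveratrol 1 and 2 lay below all controls. The log2 fold changes were -0.44 ± 0.18 for Lgmn (edgeR adjusted p = 0.238) and -0.33 ± 0.14 for Ctsz (edgeR adjusted p = 0.252). Without resveratrol 3 DESeq2 called both, Lgmn at -0.63 (adjusted p = 0.00645) and Ctsz at -0.48 (adjusted p = 0.0105). In the other direction, DESeq2 gave Lgmn at -0.26 without resveratrol 1 (adjusted p = 0.444) and Ctsz at -0.21 without resveratrol 2 (adjusted p = 0.579).

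Ctsh was at 386, 381 and 387 CPM in control corneas against 305, 363 and 320.3 CPM under resveratrol. Its control libraries differed by little, with a coefficient of variation of 0.820% against 9.12% in resveratrol, and all 3 lay above resveratrol. The difference was small, a log2 fold change of -0.22 ± 0.084 (edgeR adjusted p = 0.225, DESeq2 adjusted p = 0.215). Ctsb was at 2021, 1930 and 2649 CPM in control corneas against 1480.5, 2004 and 2000.2 CPM under resveratrol. Here control 3 was the highest library and resveratrol 1 the lowest, the other 4 lay close together, and the groups overlapped (log2 fold change -0.27 ± 0.17, edgeR adjusted p = 0.416). The edgeR log2 fold change of Ctsb was -0.11 without control 3 and -0.13 without resveratrol 1.

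The most abundant cysteine cathepsin, the aspartic cathepsin and the inhibitor showed the smallest differences. Ctsl was at 2564, 2147 and 2482 CPM in control corneas against 2459, 2326 and 2433 CPM under resveratrol, a log2 fold change of 0.0048 ± 0.11 with a 95% interval from limma of -0.26 to 0.27. Ctsd was at 664, 767 and 653 CPM in control corneas against 745, 667 and 587 CPM under resveratrol, a log2 fold change of -0.060 ± 0.11 with an interval of -0.33 to 0.21. The libraries of the groups were interleaved for both genes. Cst3 was at 281, 352 and 239.9 CPM in control corneas against 292, 297 and 214 CPM under resveratrol, a log2 fold change of -0.12 ± 0.17 with an interval of -0.53 to 0.29. For these 3 genes the direction turned when single libraries were left out, and for Ctsl also with upper-quartile scaling, so no direction is given.

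Cystatin C was set beside the enzymes it could meet as the summed FPKM of the 9 proteases divided by the FPKM of Cst3. This ratio was 10.1, 7.36 and 12.3 in control corneas against 8.36, 8.71 and 12.1 under resveratrol, 9.92 ± 2.48 and 9.74 ± 2.09 (SD, n = 3 each). The ranges of the groups overlapped almost fully. The ratio concerns RNA and includes Ctsd, which cystatin C does not block.

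Other protease inhibitors, mostly of cysteine proteases, were described as a list. Of its 23 genes 14 were tested, 10 with a lower and 4 with a higher mean (median log2 fold change -0.15). These counts include Fetub, Serpinb1a, Serpina3n and Serpinb6a, whose products mainly block other classes of protease. The most abundant were Cstb, an intracellular cystatin (433 FPKM, log2 fold change -0.16 ± 0.12), and Cst6, a secreted cystatin of epithelia (237 FPKM, 0.16 ± 0.091), both overlapping between the groups, as was Csta (-0.11 ± 0.29). DESeq2 called 2 of the 14 lower, Cst7 and Stfa2, named after their values were seen, beside 4.64% of genes with a DESeq2 adjusted p. The CPM of the groups did not overlap for 3 of the 14, all lower, beside 14.4% of all genes tested. Cst7, the cystatin of leukocytes, was at 7.42, 4.03 and 2.41 CPM in control corneas against 0.901, 1.32 and 2.11 CPM under resveratrol, a log2 fold change of -1.68 ± 0.46 (DESeq2 adjusted p = 0.0141), and control 3 was again the control nearest to resveratrol. Stfa2, a stefin from a cluster of similar genes whose shared reads make its level uncertain, was at 21.3, 28.7 and 10.4 CPM in control corneas against 6.75, 8.89 and 9.16 CPM under resveratrol (-1.28 ± 0.35, DESeq2 adjusted p = 0.00638).

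A list of other lysosomal peptidases also held Ppt1, a thioesterase gene, and Bace2 and Dpp4, membrane proteases that are not typical of lysosomes. Its genes had a lower mean in 15 of 15 tested, with a median log2 fold change of -0.39. Of the 15, 8 did not overlap, all lower, beside 14.4% of all genes tested. DESeq2 called 4 of them lower, Scpep1, Ppt1, Napsa and Cpvl, beside 4.64% of all genes. edgeR called 0, with 9 lower at an unadjusted p under 0.05, beside 11.7% of all genes tested. The same shares over all genes are the background for the lists that follow. Ctsa, a carboxypeptidase that also protects other lysosomal enzymes, was the most abundant at 166 FPKM and had 349, 370.0 and 348 CPM in control corneas against 314, 310.1 and 294 CPM under resveratrol (log2 fold change -0.22 ± 0.070). Scpep1, a serine carboxypeptidase, was at 178, 171 and 141 CPM in control corneas against 112, 118 and 115 CPM under resveratrol (-0.51 ± 0.10, DESeq2 adjusted p = 0.00212). Both genes were lower in every resveratrol library than in any control library.

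Lysosomal genes outside the proteases are given by class. Of 34 other hydrolases, 31 had a lower mean (median log2 fold change -0.19), 7 were called lower by DESeq2, and 14 did not overlap, all lower. Psap, the precursor of the saposins, was at -0.23 ± 0.11, with every resveratrol library below every control library. Of 27 lysosomal membrane proteins 15 had a lower and 12 a higher mean (median -0.095), and Lamp1, the main membrane glycoprotein, was at 858, 979.7 and 960.3 CPM in control corneas against 958, 991 and 886 CPM under resveratrol (0.019 ± 0.093). DESeq2 called 3 of the 27 lower, Cd63, Laptm5 and Slc11a1. Of 19 tested subunits of the vacuolar proton pump 10 were lower and 9 higher (median -0.037), with Atp6v0c at -0.14 ± 0.088 and Atp6v1e1 at 0.016 ± 0.15; DESeq2 called only Tcirg1 lower, the pump subunit of osteoclasts and leukocytes (-0.76 ± 0.18, DESeq2 adjusted p = 0.00953). Of 18 sorting factors and TFEB-family regulators 12 were lower and 6 higher (median -0.091), and DESeq2 called Gga2 and Grn lower. Tfeb itself was at 27.4, 27.4 and 24.6 CPM in control corneas against 30.2, 23.9 and 24.3 CPM under resveratrol (-0.018 ± 0.12), and Mitf at -0.47 ± 0.35. M6pr, a receptor that carries hydrolases to the lysosome, was at 0.12 ± 0.075. These medians describe the lists and were not tested against each other.

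**Figure D3:**
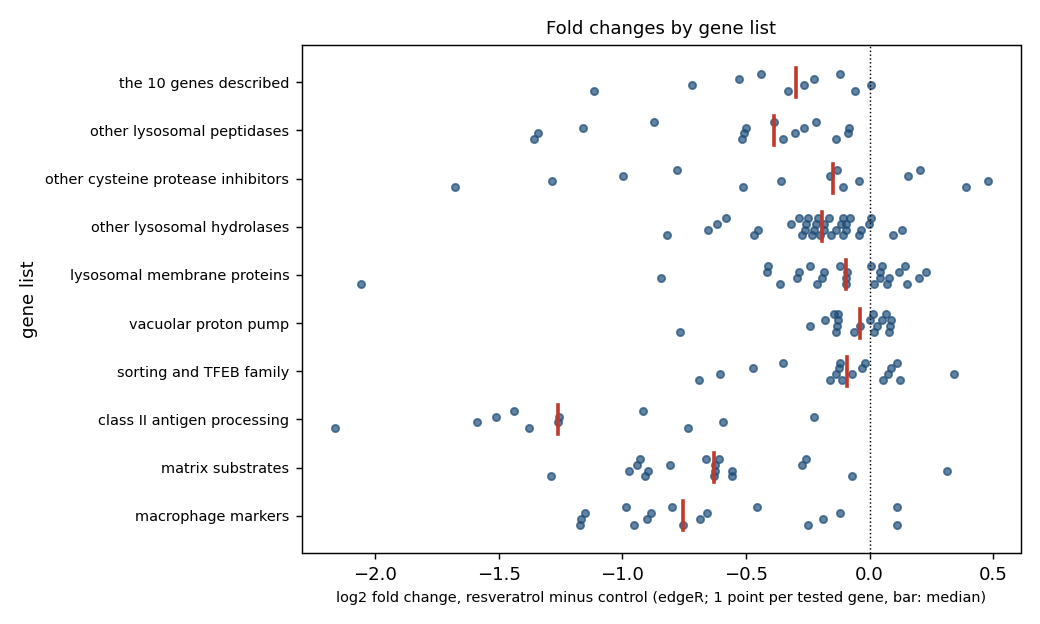
Log2 fold change of each tested gene, resveratrol minus control, by gene list; each point is 1 gene and each bar the median of its list. Among the 10 lists plotted, medians run from -0.037 for the vacuolar proton pump to -1.26 for class II antigen processing, and that of the 10 genes is -0.30.

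Class II antigen processing, the pathway in which Ctss acts, had lower means in 11 of 11 tested genes, with a median of -1.26 and 8 called lower by DESeq2. Cd74, the invariant chain that Ctss cleaves, was at 564, 367 and 256 CPM in control corneas against 140.0, 171 and 184 CPM under resveratrol (log2 fold change -1.26 ± 0.26, edgeR adjusted p = 0.116, DESeq2 adjusted p = 0.000259). The order of the libraries was the same for Ctss and Cd74 from lowest to highest. The CPM of Ctss per CPM of Cd74 was 0.109, 0.101 and 0.112 in control corneas against 0.108, 0.120 and 0.126 under resveratrol, a range of 1.24-fold where Ctss itself ranged over 4.08-fold. RT1-Da, which encodes a class II chain, had a log2 fold change of -1.38 ± 0.32, and its level is uncertain because RT1 genes are similar in sequence.

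Macrophage markers mostly had lower means under resveratrol as well. Of 18 markers 17 were tested, 15 had a lower mean (median -0.75), 6 were called lower by DESeq2, and Marco was not analysed here. Their summed CPM lay between 1033 and 1552 in control corneas and between 870 and 1056 under resveratrol, and thus overlapped. Cd68, a membrane protein of macrophage lysosomes, was at 67.3, 51.3 and 53.8 CPM in control corneas against 32.3, 23.6 and 37.5 CPM under resveratrol (-0.88 ± 0.18, DESeq2 adjusted p = 0.00113). The CPM of Ctss per CPM of Cd68 was 0.917, 0.727 and 0.533 in control corneas against 0.468, 0.874 and 0.618 under resveratrol, a range of 1.96-fold with the groups overlapping. Lyz2 (-0.80 ± 0.46) and Gpnmb (-0.12 ± 0.11), the most abundant markers of the list, overlapped between the groups. Dendritic cell markers summed to 48.4 to 74.9 CPM in control corneas against 32.5 to 42.0 CPM under resveratrol. Of these, 9 of 9 tested had a lower mean, and DESeq2 called 4 lower. Clec10a was at -0.12 ± 0.21 and Irf8 at -0.84 ± 0.23. T cell markers summed to 32.6 to 65.1 CPM in control corneas against 18.1 to 30.0 CPM under resveratrol. Of these, 9 of 9 tested had a lower mean, and DESeq2 called 4 lower. Cd4, which is not limited to T cells, was at -0.81 ± 0.26 and Cd8a at -1.54 ± 1.07. The part of such cells in the differences of Ctss, Ctsc, Ctsz and Lgmn was not tested.

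**Figure D4:**
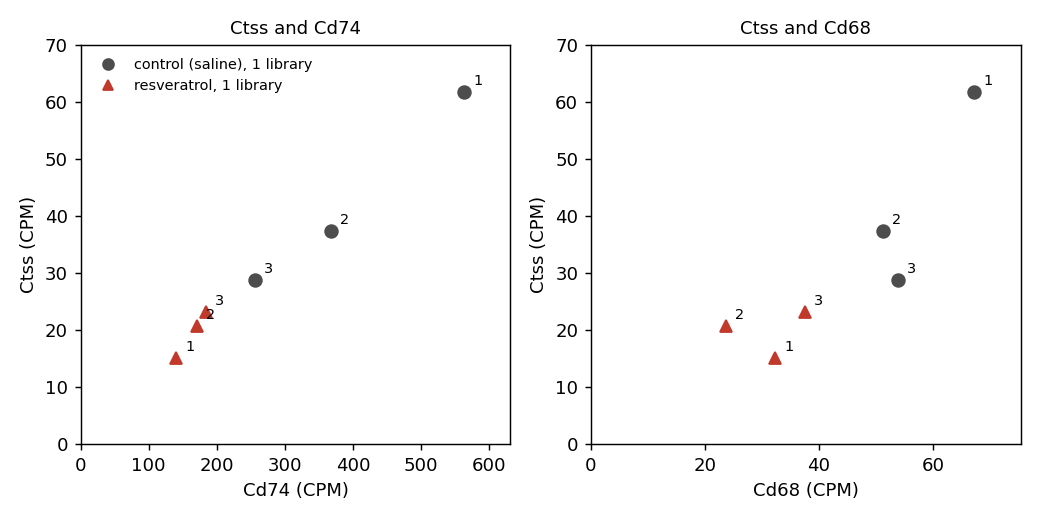
CPM of Ctss (vertical) against CPM of Cd74 (left) and Cd68 (right), both axes linear from 0; each point is 1 library with its replicate number, dots are control and triangles resveratrol. The ratio of Ctss to Cd74 stays between 0.101 and 0.126, and that to Cd68 between 0.468 and 0.917.

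Other cell types were given for the same reason. Neutrophil markers summed to 225 to 594 CPM in control corneas against 169 to 208 CPM under resveratrol, mostly S100a8 (-1.38 ± 0.45) and S100a9 (-0.92 ± 0.29), while Mpo was not analysed here and Ngp and Camp were at 0 in at least 1 library. Blood vessel markers had lower means in 10 of 10 genes, with 5 called lower by DESeq2. They summed to 546 to 778 CPM in control corneas against 368 to 449.9 CPM under resveratrol. Eng was at -0.73 ± 0.13, Erg at -0.21 ± 0.13 and Pecam1 at -0.74 ± 0.22. Keratocyte and fibroblast markers had 7 lower and 2 higher means of 9 (median -0.19), with 3 (Col5a2, Thy1 and Vim) called lower by DESeq2, and summed to 16567 to 18995 CPM in control corneas against 15339 to 20672 CPM under resveratrol, with Aldh3a1 at 0.23 ± 0.19, Lum at -0.26 ± 0.14 and Kera at -0.19 ± 0.27. Corneal epithelial markers had 3 lower and 6 higher means of 9, with Krt12 at 0.038 ± 0.26 and Krt5 at 0.032 ± 0.24. Corneal endothelial markers were mixed, with 3 lower and 4 higher means of 7 (median 0.33). DESeq2 called Cdh2 and Col8a1 lower and Alcam higher, and Col8a2 was at -0.33 ± 0.16. Mast cell markers summed to between 24.4 and 45.1 CPM in control corneas and between 33.5 and 42.9 CPM under resveratrol, mostly Kit (0.0083 ± 0.23), which is not limited to mast cells; DESeq2 called Hdc higher (adjusted p = 0.0240), which was at 4.21 CPM in resveratrol 3 and at most 0.430 CPM in every other library. B cell markers were low, with Pax5 at -0.46 ± 0.53 and Cd79a under 0.2 CPM throughout. Their part in the results on the cathepsins was not tested.

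Ctsk is also known as the cathepsin of osteoclasts, and genes listed for such cells, some not limited to them, were partly present. Of 8 listed genes 5 were tested, 4 with a lower and 1 with a higher mean (median log2 fold change -0.52). DESeq2 called 2 of them lower, Acp5 and Mmp9. Acp5, a phosphatase of osteoclasts and macrophages, was at 91.7, 69.8 and 40.4 CPM in control corneas against 42.0, 34.1 and 38.3 CPM under resveratrol (-0.82 ± 0.27, DESeq2 adjusted p = 0.0397). Mmp9, a gelatinase, was at 129, 139.6 and 114 CPM in control corneas against 37.8, 76.0 and 38.0 CPM under resveratrol (-1.33 ± 0.26, DESeq2 adjusted p = 0.000139). Ocstamp, a defining gene of osteoclasts, was at most 0.858 CPM, and Dcstamp and Calcr were not analysed here. Atp6v0d2, also on that list, was at 2.33 CPM in control 1 and at most 0.327 CPM in every other library. Matrix genes whose proteins cathepsins can cleave had lower means in 17 of 18 (median -0.63), and DESeq2 called 12 lower; Lum and Sparc (-0.63 ± 0.12), the most abundant by FPKM, stood on either side of that call.

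The genes most alike to each of the 10 were taken as those with the highest Pearson r of log2(CPM + 0.5) over the 6 libraries, among genes with a mean of at least 10 CPM. Among 9017 genes compared, 9 to 145 had r over 0.95 with each of the 10, so r serves only as a measure of likeness and also reflects the group difference. The size of a change does not enter r, so a gene most alike can change by less or by more. Ctss was most like Akr1b1, an aldose reductase gene (r = 0.998), and 145 genes had r over 0.95 with it. The log2 fold change of Akr1b1 was -0.22 ± 0.091, beside -1.11 for Ctss, while S100a4, given below for Lgmn, was at -0.70 ± 0.27, beside -0.44 for Lgmn. Ctsc was most like Cyba, which encodes part of the NADPH oxidase of phagocytes (r = 0.997, 71 genes over 0.95), which was at 45.8, 49.3 and 47.4 CPM in control corneas against 20.5, 25.5 and 27.8 CPM under resveratrol. Lgmn was most like S100a4, a calcium-binding protein (r = 0.997), Ctsz like Tgfbi, an abundant corneal matrix protein (r = 0.992), and Ctsk like Rps6kb2, a ribosomal S6 kinase (r = 0.986). Ctsh was most like Ndufb11 (r = 0.998), Ctsb like Snx6, a sorting nexin (r = 0.990), Ctsd like Acsbg1 (r = 0.991), Ctsl like Nemp2 (r = 0.986) and Cst3 like Prelp, a corneal matrix proteoglycan (r = 0.984).

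Names in the descriptions carry the ending Sep for control 1 and resveratrol 1 and the ending Oct elsewhere, with no statement of what either means. Ctss had a log2 ratio of -2.03 between the single Sep libraries and a log2 fold change of -0.59 in the Oct libraries alone (edgeR adjusted p = 0.255). Ctsc was at -0.87 and -0.65, Ctsk at -0.82 and -0.35, and Lgmn at -0.79 and -0.29. Each of these had the same sign in both, with the larger value in the Sep pair, which has no replicates; the difference was not tested. Ctsz was at -0.50 and -0.24, Ctsb at -0.45 and -0.19, Ctsh at -0.34 and -0.16, and Ctsl at -0.061 and 0.042. Ctsd and Cst3 had opposite signs, at 0.17 and -0.18 for Ctsd and 0.054 and -0.21 for Cst3. In the Oct libraries alone DESeq2 called Ctsc but not Ctss (adjusted p = 0.0848).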

How the data were processed

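RNA from corneas was sequenced as paired-end reads, per the labels' protocols. The authors deposited count values per gene, whole and unscaled, and FPKM of 17771 genes, as the file headers and values show; their FPKM table equalled the single-library files. The submitters' processing notes name the build mRatBN7.2, R 3.2.0 and DESeq2 without roles; aligner, counter, annotation and strand setting: not given in the sources used here. A separator missing from the count table's header was resolved by name.

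Counts were filtered with filterByExpr (14213 genes kept), scaled with TMM and tested with edgeR 4.0.16 (glmQLFit, glmQLFTest, no covariate, Benjamini-Hochberg, threshold 0.05) in R 4.3.3. limma 3.58.1 with a trend gave SEs and 95% intervals from log2 CPM (prior count 2). DESeq2 1.42.0 was an alternative; others were scaling, filters, limma voom, limma on log2(FPKM + 1) and log2(FPKM + 0.1), the replicate number, the Sep or Oct ending and leaving out libraries. The fits were tested on simulated data. No pair of libraries agreed within sampling noise (chi-square over its degrees of freedom at least 31.4). Depth was similar, so precision is lowest for genes with few counts. With 3 against 3 libraries an exact permutation test cannot go below 0.1, so none was made.

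The members and gene lists were chosen with earlier results of these data known. Named were the 10 genes, the 2 genes of highest FPKM per list, the most alike gene per member and a fixed set; others were named after their values were seen. Some genes that the rule selects are not reported here.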

Additional observations from a re-analysis of the deposited data

How the results depend on the processing

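The 10 genes gave 0 edgeR calls under every scaling, filter, limma, covariate and left-out-library setting tried, and 2 with DESeq2, which called 1007 genes in all. Without single libraries edgeR called 0 to 21 genes and 0 of the 10. The median log2 fold change of the 10 moved between -0.36 and -0.22 over 19 alternatives. With the replicate number as a block the median was -0.30 and edgeR called 0. The deviations of same-numbered libraries from their group means correlated at -0.023 to -0.0044, and those of differently numbered libraries at -0.0062 to 0.017. With 3 libraries per group these values cannot tell whether the numbers pair the samples. Alternatives with DESeq2, chosen after seeing the data, called 3 of the 10 (672 genes) with the replicate block, 1 (404 genes) in the Oct libraries alone and 1 to 4 (390 to 1041 genes) without single libraries. The 6 of the 10 at an unadjusted edgeR p under 0.05 became 3 with library totals only and 2 in the Oct libraries alone. The signs of 3 genes turned: Ctsl at -0.020 with upper-quartile factors, -0.0030 with a filter of at least 1 CPM in at least 3 libraries, and -0.068 to 0.060 without single libraries (-0.054 to 0.066 in DESeq2); Ctsd at -0.14 to 0.033 (-0.13 to 0.034, with 0.032 without control 2) and Cst3 at -0.24 to 0.039 (-0.22 to 0.054, with 0.028 without resveratrol 3) without single libraries; their differences lie near 0. The other 7 genes kept their sign in all 19 alternatives. Adjusted p over these was 3.32e-05 to 0.280 for Ctsc and 0.00546 to 0.294 for Ctss. Of the 10 genes Ctss had the fewest counts, at least 554 in every library.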
